A study of Mus musculus with 15 samples.

Results

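The tight junction and adhesion barrier genes examined here were Cldn1, Cldn3, Cldn4, Cldn7, Ocln, Tjp1, Cdh1, Dsg1a, Dsg3 and Dsc2. They were chosen by name, as the rows of the count matrix whose Ensembl identifier carries one of these symbols, and all 10 were found among 55487 rows. All 10 passed the filter on low counts (at least 10 counts in at least 5 libraries), which kept 19006 genes. The study sequenced RNA from the conjunctiva of female, wild-type mice of a strain the labels spell BALC/c, aged 9 to 12 weeks. In all 3 groups the ear skin had first been sensitized with ovalbumin (OVA) together with MC903, a vitamin D analog that induces atopic dermatitis–like inflammation, in a daily dose of 2.5 nmol over 7 days. A daily eye challenge of 7 days followed, with PBS, with OVA under the isotype control antibody REGN2390, or with OVA under REGN1103, the antibody to the IL-4 receptor α chain (anti-IL-4Ra), both antibodies at 25 mg/kg. Each group held 5 libraries, and the labels name no antibody for the PBS group. The labels do not say whether each library came from its own animal, so p-values measure the spread between these libraries. No group was free of skin sensitization, so every value describes the challenge and the antibody on that shared background.

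Epithelial cells hold one another, and close the space between them, with a set of protein assemblies in their lateral membranes. Tight junctions lie nearest the surface, where claudins and occludin seal the gap and the scaffold ZO-1 ties them to actin. Adherens junctions below them are built on E-cadherin, and desmosomes, whose cadherins are the desmogleins and desmocollins, anchor the keratin filaments and carry mechanical load. The conjunctiva is a stratified mucosal epithelium with goblet cells, and its junctions are part of the barrier between the tear film and the tissue.

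The libraries held 48622246 to 87745024 counts, and the deepest was isotype replicate 2. The epithelial identity of the tissue was checked on its markers: Muc5ac, the mucin of conjunctival goblet cells, averaged 1562, 1745 and 1389 CPM (counts scaled to a common library total) in the PBS, isotype and anti-IL-4Ra groups, and Krt4 and Krt13, keratins of stratified mucosa, averaged 738 to 983 CPM. Krt10, a keratin of cornifying epidermis, was also high, at 5298 to 6813 CPM. Markers of other tissue stood at unequal levels between the libraries. The summed CPM of 13 lacrimal acinar genes ran from 937 to 29650 in the PBS group, from 701 to 19010 in the isotype group and from 1862 to 84180 in the anti-IL-4Ra group. Prol1, a gene of that list, had no count in any library. The summed CPM of 10 skeletal muscle genes ran from 6703 to 12270, from 4102 to 6260 and from 5280 to 7821 in the same order. For 9 hair follicle genes it ran from 826.5 to 1562, from 773.5 to 10270 and from 598.4 to 1902. For 10 meibomian and sebaceous genes it ran from 7763 to 16280, from 5291 to 15870 and from 11780 to 16490. No gene of the hair follicle or meibomian lists was called by edgeR in any comparison of the groups. The study's methods mention 2 outliers that the sources used here do not identify, and the libraries analyzed may include them. All 15 were kept, and in 25 fits that each left out 1 isotype and 1 anti-IL-4Ra library the difference between these groups was called for Cldn3 in 19 and for Dsg3 in 13. In bulk tissue, fewer cells of a type and less RNA per cell cannot be told apart.

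Most of these junction genes did not pass the test between any of the groups. Cldn3 averaged 68.2 ± 9.47 CPM (SD, n = 5) with anti-IL-4Ra, above the 45.5 ± 8.30 CPM of the isotype group and the 49.7 ± 3.67 CPM of the PBS group. Dsg3 went the other way, at 174 ± 20.6 CPM with anti-IL-4Ra against 225 ± 15.9 CPM with the isotype control. Ocln was lower after OVA with the isotype control, at 35.9 ± 1.23 CPM, than after PBS, at 40.9 ± 3.30 CPM. The other 7 genes did not pass the test in any of the 3 comparisons.

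All values in CPM are scaled to each library's effective size (TMM), and to compare genes with each other they were also divided by exon length, giving FPKM (fragments per kilobase of exon, scaled to depth like CPM). Over the 15 libraries the FPKM level was highest for Cldn4, at 123 ± 17.2 (SD), and its lowest library, at 93.9 FPKM, exceeded the highest of any other member. Cdh1 followed at 80.3 FPKM and Dsg1a at 54.5 FPKM. Next came Cldn3 at 43.3, Cldn7 at 42.4, Cldn1 at 41.1 and Dsc2 at 40.4 FPKM. Cdh1 was above Dsg1a in 15 of 15 libraries, and Dsc2 above Dsg3 in 15 of 15, although their ranges over all libraries overlapped. Dsg1a was above Cldn3 in 11 of 15 libraries. Among Cldn3, Cldn7, Cldn1 and Dsc2 each gene was above the next in 7 or 8 of 15 libraries, so these neighbors did not differ beyond their spread. Dsg3 stood at 28.6 FPKM, and its lowest library, at 22.4 FPKM, was above the highest of Tjp1 and Ocln. Tjp1, at 11.3 FPKM, and Ocln, at 8.92 FPKM, were the lowest, and Tjp1 was above Ocln in 15 of 15 libraries although their ranges overlapped. Every library of the claudins was above every library of Tjp1 and Ocln on this scale.

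**Figure D1:**
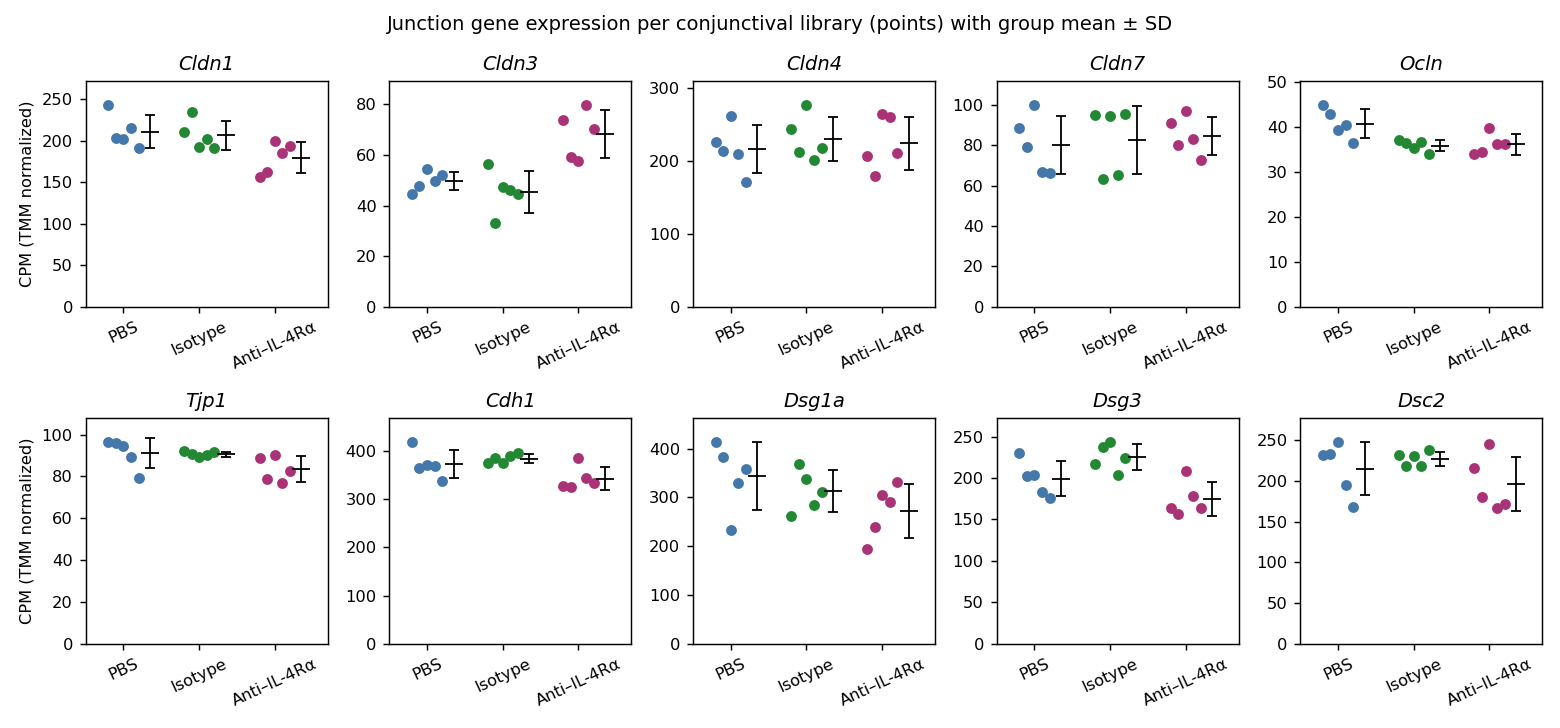
Each panel plots 1 gene, with CPM (TMM normalized, axis from 0) against the group. Points are the 5 libraries of a group and bars the group mean ± SD. The 5 anti-IL-4Ra libraries of Cldn3, at 57.7 to 79.7 CPM, sit above all PBS and isotype libraries, while the groups overlap for every other gene.

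Among the claudins, the transmembrane proteins that form the tight junction strands, Cldn3 (ENSMUSG00000070473, GRCm38 chr5:134986214-134987472, plus strand) and Cldn4 (ENSMUSG00000047501, chr5:134945119-134946934, minus strand) are neighbors, 39279 bases apart and transcribed from opposite strands. Both encode sealing claudins of simple and stratified epithelia. Their upstream sequences are shown because these adjacent genes differed in how they moved between the groups. Each is the 250 bases before the transcription start, 5′ to 3′ on the gene's own strand (RefSeq, GRCm38.p6; chr5:134985964-134986213 for Cldn3 and chr5:134946935-134947184 for Cldn4), and capitals mark matches to the motifs searched.
Cldn3: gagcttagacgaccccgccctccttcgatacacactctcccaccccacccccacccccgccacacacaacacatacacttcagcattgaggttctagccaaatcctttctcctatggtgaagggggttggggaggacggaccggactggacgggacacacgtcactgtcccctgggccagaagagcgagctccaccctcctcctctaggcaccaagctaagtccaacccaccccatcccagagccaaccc
Cldn4: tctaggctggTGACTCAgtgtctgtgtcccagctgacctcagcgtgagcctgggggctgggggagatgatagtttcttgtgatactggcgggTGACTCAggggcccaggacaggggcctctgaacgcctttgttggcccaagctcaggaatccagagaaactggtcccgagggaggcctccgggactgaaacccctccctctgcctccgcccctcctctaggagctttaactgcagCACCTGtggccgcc
The motifs searched, on both strands, were TGANTCA (AP-1), CACCTG (an E-box), AACCGGTT (grainyhead-like), and TTC and GAA with 4 bases between (STAT6, the factor downstream of the IL-4 receptor). The Cldn4 window held TGACTCA at −240 to −234 and at −158 to −152 from the start and CACCTG at −14 to −9, whereas none of these letters occurred in the Cldn3 window. Over 32851 promoters of the same length, 6.75% held the AP-1 motif, 17.2% the E-box, 0.116% the grainyhead-like motif and 5.85% the STAT6 motif. The Cldn3 window had 60.8% G and C with 9 CpG, and the Cldn4 window 62.0% with 7 CpG, against medians of 52.4% and 6 over all promoters. Promoter windows were searched for 6 of the 10 genes, in 8 windows, and not for Cdh1, Dsg1a, Dsg3 or Dsc2. The STAT6 letters occurred in 1 of these windows, a window of Ocln, at −215 to −206. A match of letters is a description and not a binding site.

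Cldn3 was measured at 44.8, 47.95, 54.3, 49.6 and 52.0 CPM in PBS replicates 1 to 5. The isotype libraries held 56.3, 33.1, 47.5, 46.0 and 44.6 CPM. The anti-IL-4Ra libraries held 73.8, 59.3, 57.7, 79.7 and 70.5 CPM. Every anti-IL-4Ra library lay above every library of the other groups, although the lowest of them, replicate 3, exceeded isotype replicate 1 by little. Against the isotype control, Cldn3 was 49.9% higher (95% interval 25.1% to 79.5%, log2 difference 0.58, SE 0.122), with an edgeR adjusted p of 0.0118 and an exact permutation p of 0.00794, the smallest that 5 against 5 libraries can give. Against PBS it was 37.1% higher (interval 14.5% to 64.1%), which missed the threshold with an edgeR adjusted p of 0.0527, although the groups did not overlap (exact permutation p = 0.00794). OVA with the isotype control against PBS gave a log2 difference of −0.13 (interval −0.39 to 0.13, edgeR adjusted p = 0.495). The isotype libraries included both the lowest of the 15, replicate 2, and a value above all of the PBS group, replicate 1. Without isotype replicate 2, the difference between anti-IL-4Ra and isotype was 0.49 on the log2 scale (edgeR adjusted p = 0.0162). An antisense gene, Wbscr25, overlaps Cldn3 and averaged 0.107 to 0.163 CPM, far below the Cldn3 level.

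Cldn4 ran from 171 to 262 CPM with a median of 214 CPM in the PBS group, from 201 to 276 CPM with a median of 218 CPM in the isotype group and from 179 to 264 CPM with a median of 211 CPM with anti-IL-4Ra. The 3 ranges overlapped almost entirely. Isotype minus PBS was 0.09 on the log2 scale (interval −0.18 to 0.37), and anti-IL-4Ra minus isotype was −0.04 (interval −0.31 to 0.23), so a change of the size seen in Cldn3 lay outside both intervals. Cldn7 (ENSMUSG00000018569, chr11:69964779-69967885, plus strand), a claudin with basolateral as well as junctional protein, split into high and low libraries within the isotype group. It was at 94.8, 94.4 and 95.6 CPM in isotype replicates 1, 3 and 5, and at 63.2 and 65.2 CPM in replicates 2 and 4. The PBS libraries spanned 66.4 to 99.9 CPM and the anti-IL-4Ra libraries 72.8 to 97.0 CPM, so the spread within groups exceeded any difference between them. Cldn1 (ENSMUSG00000022512, chr16:26356642-26371841, minus strand), the claudin whose loss leaves the mouse epidermis leaky, had medians of 203, 202 and 186 CPM in the PBS, isotype and anti-IL-4Ra groups. Its anti-IL-4Ra libraries ranged from 157 to 199 CPM, and 3 of the 5 lay below all isotype libraries and below all PBS libraries. The log2 difference was −0.20 against isotype (interval −0.38 to −0.02, edgeR adjusted p = 0.116) and −0.23 against PBS (interval −0.41 to −0.05, edgeR adjusted p = 0.118).

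Ocln (ENSMUSG00000021638, chr13:100496507-100552718, minus strand) encodes occludin, the first transmembrane protein identified in tight junctions. It was measured at 44.9, 43.1, 39.4, 40.5 and 36.4 CPM in PBS replicates 1 to 5. The isotype libraries held 37.1, 36.6, 35.4, 36.6 and 34.1 CPM. The anti-IL-4Ra libraries held 34.0, 34.5, 39.8, 36.3 and 36.3 CPM. The PBS group reached higher than either OVA group, but PBS replicate 5 fell inside the range of both. With the isotype control, Ocln was lower after OVA than after PBS by a log2 difference of −0.18 (SE 0.057, or −12.0% with a 95% interval of −19.2% to −4.24%), with an edgeR adjusted p of 0.0399 and an exact permutation p of 0.0317. The call was near the threshold: it was kept in 7 of 15 fits that left out 1 library, and it was lost without PBS replicate 1, 2, 3 or 4 or isotype replicate 2, 3, 4 or 5, with edgeR adjusted p-values from 0.0506 to 0.0947. Anti-IL-4Ra against isotype gave a log2 difference of 0.01 for Ocln (interval −0.11 to 0.13), and anti-IL-4Ra against PBS gave −0.17 (interval −0.30 to −0.05, edgeR adjusted p = 0.0908). Tjp1 (ENSMUSG00000030516, chr7:65296165-65527781, minus strand), which encodes the scaffold ZO-1, varied least of the 10 genes, with a coefficient of variation of 7.06% over the 15 libraries. Its isotype libraries lay between 89.1 and 92.0 CPM, or 1.28%, within the PBS range of 79.1 to 96.5 CPM. The anti-IL-4Ra libraries lay between 76.8 and 90.5 CPM, with 4 of 5 below all isotype libraries, and the log2 difference of −0.12 did not pass (interval −0.24 to 0.0047, edgeR adjusted p = 0.168).

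Cdh1 (ENSMUSG00000000303, chr8:106603351-106670246, plus strand), which encodes E-cadherin, was measured at 420, 366, 372, 370 and 339 CPM in the PBS libraries. The isotype libraries held 376, 387, 377, 390 and 396 CPM. The anti-IL-4Ra libraries held 327, 326, 386, 344 and 335 CPM. Of the anti-IL-4Ra libraries, 4 lay below all 5 isotype libraries and replicate 3 lay among them. The log2 difference was −0.16 (SE 0.061, interval −0.29 to −0.03) with an edgeR adjusted p of 0.0799 and an exact permutation p of 0.0238. It passed without anti-IL-4Ra replicate 3 (−0.21, edgeR adjusted p = 0.0188), with DESeq2 (adjusted p = 0.0298) and with limma voom (adjusted p = 0.0202), which called 21.4% and 20.4% of all genes in that comparison. Isotype against PBS gave 0.04 (interval −0.09 to 0.17).

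The desmosomal cadherins were Dsg1a (ENSMUSG00000069441), Dsg3 (ENSMUSG00000056632) and Dsc2 (ENSMUSG00000024331). Dsg3, the desmoglein of basal and lower layers of skin and of all layers of stratified mucosa, was measured at 230, 202, 204, 183 and 176 CPM in the PBS libraries. The isotype libraries held 217, 237, 244, 204 and 225 CPM. The anti-IL-4Ra libraries held 164, 156, 208, 179 and 164 CPM. Isotype replicates 2 and 3 lay above all PBS libraries, and 4 of the 5 anti-IL-4Ra libraries lay below all isotype libraries, replicate 3 being the exception. Dsg3 fell with anti-IL-4Ra relative to isotype, by a log2 difference of −0.37 (SE 0.087, or −22.6% with a 95% interval of −32.0% to −12.0%), with an edgeR adjusted p of 0.0183 and an exact permutation p of 0.0159. The call was kept in 14 of 15 fits without 1 library and missed the threshold without isotype replicate 3 (edgeR adjusted p = 0.0537). Dsg3 was 0.18 higher on the log2 scale in isotype than in PBS (interval −0.01 to 0.36, edgeR adjusted p = 0.172), and −0.19 with anti-IL-4Ra against PBS (interval −0.38 to −0.01, edgeR adjusted p = 0.204).

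Dsg1a, one of the mouse copies of desmoglein 1, the desmoglein of upper, differentiated layers, had the widest spread of the adhesion genes, from 232 to 414 CPM in the PBS group, from 262 to 370 CPM in the isotype group and from 194 to 333 CPM with anti-IL-4Ra. The groups overlapped, and the 95% interval for anti-IL-4Ra against isotype ran from −0.55 to 0.15 on the log2 scale. Anti-IL-4Ra against PBS gave −0.33 (interval −0.69 to 0.02, edgeR adjusted p = 0.238). Dsg1a, Dsg1b and Dsg1c are close copies, so reads shared between them may have been divided or dropped in counting, and their separate values are uncertain. Dsc2, the desmocollin with the broadest expression in epithelia, ranged from 168 to 248 CPM in PBS, from 219 to 238 CPM in isotype and from 167 to 245 CPM in anti-IL-4Ra libraries. Its isotype libraries were close together, with a coefficient of variation of 3.79%, while in both other groups it spread over a wider range. Its log2 difference for anti-IL-4Ra against isotype was −0.22 (interval −0.46 to 0.03, edgeR adjusted p = 0.206).

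**Figure D2:**
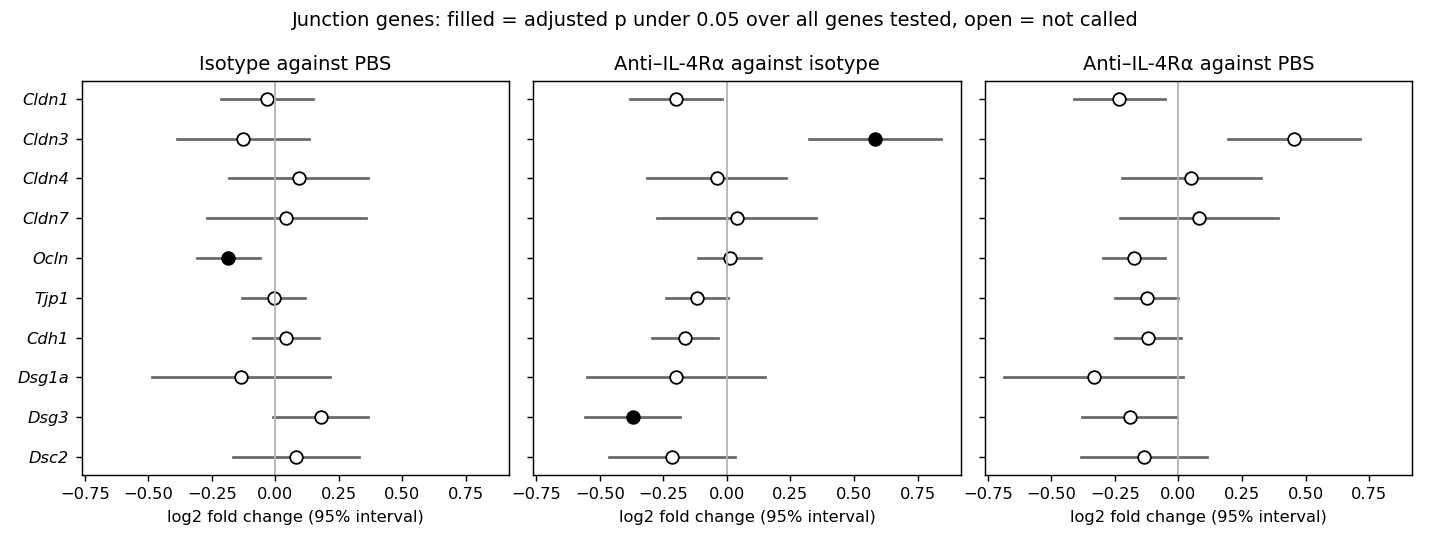
The log2 fold change of each of the 10 genes (points, 95% intervals as lines) is plotted for the 3 comparisons, with filled points for an edgeR adjusted p under 0.05. Ocln in the first comparison and Cldn3 and Dsg3 in the second are filled, at −0.18, 0.58 and −0.37, and no point is filled in the third.

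The counts were read against all genes tested. OVA with the isotype control against PBS compares groups that differ in the challenge, and the labels name an antibody only for the first. In that comparison 1 of the 10 genes was called at an adjusted p under 0.05 (Ocln, lower). Of all genes 17.0% were called, 9.53% higher and 7.49% lower. None of the 10 genes had groups that did not overlap, against 12.3% of all genes. For anti-IL-4Ra against isotype, which asks what receptor blockade changed under the same challenge, 2 of 10 were called (Cldn3 higher and Dsg3 lower), and 14.9% of all genes were called, 6.73% higher and 8.13% lower. Cldn3 alone had groups that did not overlap in that comparison, as did 7.31% of all genes. For anti-IL-4Ra against PBS edgeR called 0 of 10, where 3.72% of all genes were called. An unadjusted p under 0.05 was found for 5 of 10, against 23.1% of all genes. DESeq2 called 1 of 10, against 10.4% of all genes, and limma voom called 3 of 10, against 12.2%. Cldn3 was again the single gene whose groups did not overlap, against 6.1% of all genes. The median log2 difference over the 10 genes was 0.02, −0.14 and −0.13 in the 3 comparisons, and over all genes −0.01, 0.01 and 0.00. For anti-IL-4Ra against isotype the difference was negative for 7 of the 10 genes and positive for Cldn3, Cldn7 and Ocln. The first and second comparisons share the isotype libraries, and the others share a group as well, so their values are not independent.

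Markers of other tissue moved with part of these results. A lacrimal acinar score, the mean of the standardized log2 CPM of the list, ran from 0.193 to 1.09 in the anti-IL-4Ra group against −1.50 to 0.232 in the isotype group (exact permutation p = 0.0159, adjusted over 9 tests 0.0476) and −1.27 to 0.146 in the PBS group (exact permutation p = 0.00794, adjusted 0.0357). Of the 12 lacrimal genes tested, 3 were called higher in anti-IL-4Ra than in isotype and 4 higher than in PBS. Of all genes 6.73% were called higher than in isotype, and 3.72% were called in either direction against PBS. The list holds Obp1a, Lcn11 and genes of the Scgb and Esp families, which the study reports as raised by anti-IL-4Ra in these data. The difference in score between anti-IL-4Ra and isotype is therefore not an independent result. The lacrimal score was lowest in isotype replicate 2, which also had the lowest Cldn3. Within the anti-IL-4Ra group the score was lowest in replicate 3, where Cldn3 was lowest. Every other member except Dsg1a was highest in that library within the group. With each group centered on its mean, Cldn3 rose with the lacrimal score over the 15 libraries (Pearson r = 0.788, permutation p = 0.00222, adjusted over 30 relations 0.0496; Spearman rho = 0.643, permutation p = 0.0127, adjusted 0.191), and r was 0.571 without the 2 libraries farthest from the median score. Dsg3 fell with it (r = −0.646, permutation p = 0.00786, adjusted 0.0496; rho = −0.532, permutation p = 0.0488, adjusted 0.209; r = −0.642 without those 2 libraries), as did Cdh1 (r = −0.610, adjusted permutation p = 0.0496; rho = −0.471, adjusted 0.264; r = −0.705 without the 2) and Cldn1 (r = −0.679, adjusted permutation p = 0.0496; rho = −0.571, adjusted 0.206; r = −0.407 without the 2). With the lacrimal score in the fit, the log2 difference between anti-IL-4Ra and isotype was 0.29 for Cldn3 (interval 0.06 to 0.51, edgeR adjusted p = 0.432) and −0.20 for Dsg3 (interval −0.40 to −0.01, edgeR adjusted p = 0.549), and neither was called. In that fit Cldn3 was called lower (−0.25, edgeR adjusted p = 0.0479) and Dsg3 higher (0.24, edgeR adjusted p = 0.0293) in isotype than in PBS. The score differed between the anti-IL-4Ra and isotype groups, so this fit cannot separate the score from the antibody. It called 71 genes between them, against 2826 without the score. In that fit the median log2 difference over the 10 genes was −0.03 for anti-IL-4Ra against isotype and 0.03 against PBS. Without the score these medians were −0.14 and −0.13.

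**Figure D3:**
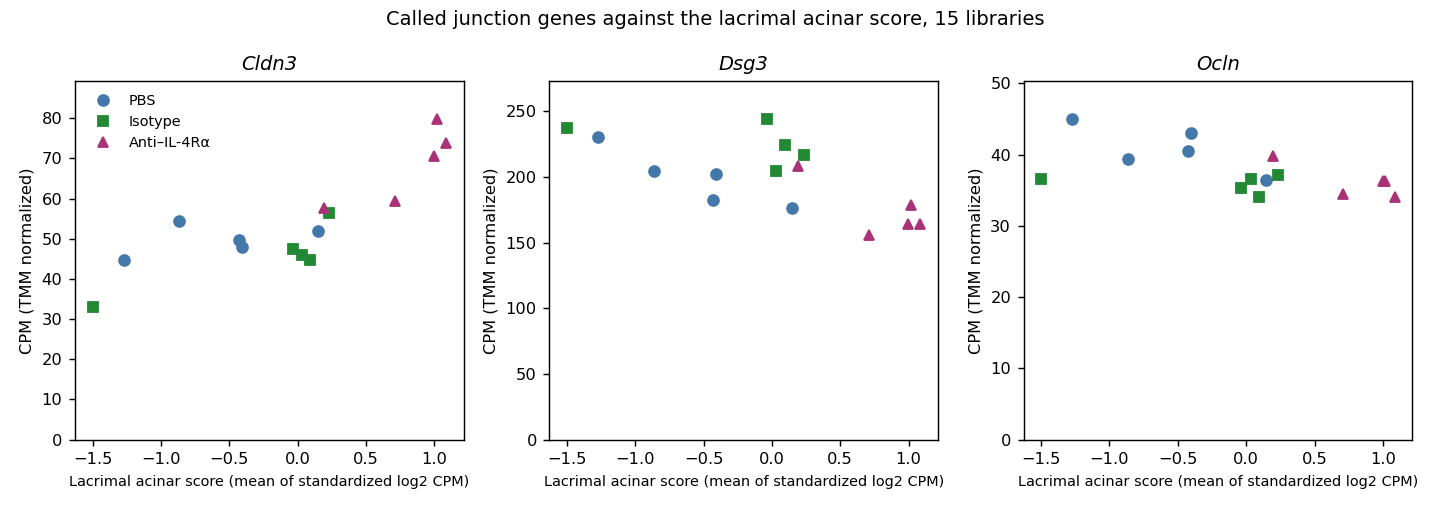
CPM of Cldn3, Dsg3 and Ocln (TMM normalized, axes from 0) is plotted against the lacrimal acinar score for the 15 libraries, with symbols for the groups. The anti-IL-4Ra libraries, at scores of 0.193 to 1.09, lie furthest to the right with 1 isotype library among them, and their Cldn3 points are the highest of the panel.

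Epithelial genes gave a second reference. The epithelial score, from 12 basal and general epithelial genes, ran from −0.444 to 0.809 in PBS, from −0.293 to 0.715 in isotype and from −0.623 to −0.076 in anti-IL-4Ra libraries, and the anti-IL-4Ra and isotype groups did not differ at the threshold (exact permutation p = 0.0714). Cldn4 followed it most closely within groups (r = 0.70, adjusted permutation p = 0.0496; rho = 0.832, adjusted 0.0402; r = 0.856 without the 2 farthest libraries). With the epithelial score in the fit Dsg3 missed the threshold for anti-IL-4Ra against isotype (−0.29, edgeR adjusted p = 0.0637), and Cldn3 was called. The median over the 10 members in that fit was −0.09 for anti-IL-4Ra against isotype and −0.06 against PBS. The genes of upper epithelial layers and of the conjunctiva moved with the groups as well. Of 14 such genes, 6 were called higher in isotype than in PBS, and 8 were called lower and 1 higher with anti-IL-4Ra than with isotype. The shares over all genes were 9.53%, 8.13% and 6.73% in the same order. The muscle score was lower in isotype than in PBS libraries (−1.51 to −0.121 against −0.022 to 2.12, exact permutation p = 0.00794, adjusted over 9 tests 0.0357). Of the muscle genes 8 of 10 were called lower, against 7.49% of all genes. With the muscle score in the fit Ocln was not called (−0.21, SE 0.086, edgeR adjusted p = 0.238). Without the score the Ocln difference was −0.18 with an SE of 0.057. The score did not overlap between these groups, so the fit cannot separate score and group. Of 12 leukocyte genes, 6 were called higher in isotype than in PBS, against 9.53% of all genes. Their summed CPM was 262 to 485 against 224 to 273, and their part in the Ocln difference was not tested.

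A ratio taken within each library needs no library size, and Cdh1, present in all layers of the epithelium, served as the denominator for the 3 called genes (a comparison added after the values were seen). For Ocln the log2 ratio to Cdh1 was −3.19 ± 0.0617 (SD, n = 5) in PBS, −3.42 ± 0.0724 in isotype and −3.25 ± 0.0277 in anti-IL-4Ra libraries. The isotype libraries, at −3.54 to −3.34, lay below all others. Isotype minus PBS was −0.23, and anti-IL-4Ra minus isotype was 0.18 (exact permutation p = 0.00794 for each, adjusted over 9 tests 0.0286), while anti-IL-4Ra minus PBS was −0.05 (exact permutation p = 0.0794, adjusted 0.102). The ratio of Ocln to Cdh1 thus differed between anti-IL-4Ra and isotype, whereas the CPM of Ocln did not. The log2 difference in that comparison was 0.01 for Ocln and −0.16 for Cdh1, so the difference in ratio lay mostly in Cdh1. For Cldn3 the ratio was 0.76 higher in anti-IL-4Ra than in isotype libraries and 0.57 higher than in PBS libraries (exact permutation p = 0.0159 for each, adjusted 0.0286). For Dsg3 it was lower by −0.21 in anti-IL-4Ra than in isotype libraries (exact permutation p = 0.0159, adjusted 0.0286). Cdh1 itself was 0.16 lower on the log2 scale with anti-IL-4Ra than with isotype, a difference that did not pass, and the ratios contain it.

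The other genes of each junction were counted from lists chosen with earlier results of these data known. Of all genes 9.53% were called higher and 7.49% lower in isotype than in PBS. Between anti-IL-4Ra and isotype the shares were 6.73% higher and 8.13% lower, and 3.72% were called for anti-IL-4Ra against PBS. With the lacrimal score in the fit, 71 genes were called between anti-IL-4Ra and isotype, 5 higher and 66 lower. Which genes of these lists that fit called was not examined, and it cannot separate the score from the antibody. Of 35 other tight junction genes tested, 1 was called higher and 7 lower in isotype than in PBS, and 6 higher and 1 lower in anti-IL-4Ra than in isotype libraries. The median log2 difference of the list was −0.08 and 0.08 in these comparisons. The largest of the called genes in the first were Cldn15, a pore-forming claudin (0.80, edgeR adjusted p = 0.0210), Cldn19 (−0.58, adjusted p = 0.0201), Cldn11 (−0.55, adjusted p = 0.0263) and Cldn8 (−0.49, adjusted p = 0.0393). Cldn15 and Cldn11 averaged less than 1 CPM in every group. In the second they were Cldn11 (0.59, edgeR adjusted p = 0.0265), Cldn8 (0.47, adjusted p = 0.0499), Ildr1, a tricellular junction protein (0.46, adjusted p = 0.0450), and Cxadr, an adhesion receptor at tight junctions (−0.37, adjusted p = 0.0245). Cldn8, a sealing claudin, averaged 13.8, 9.83 and 13.6 CPM in the PBS, isotype and anti-IL-4Ra groups, and Cldn11 0.896, 0.610 and 0.915 CPM. For anti-IL-4Ra against PBS, 0 genes were called higher and 2 lower by edgeR.

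Of 16 other desmosome genes, 2 were called higher and 0 lower in isotype than in PBS libraries, against 9.53% and 7.49% of all genes. In anti-IL-4Ra against isotype libraries 1 was called higher and 7 lower, against 6.73% and 8.13%. The list medians were 0.05 and −0.31 on the log2 scale. No gene of the list was called for anti-IL-4Ra against PBS. Both genes that rose were copies of desmoglein 1. Dsg1c averaged 0.779 CPM in PBS, 8.53 CPM in isotype and 1.06 CPM in anti-IL-4Ra libraries, a log2 difference of 3.45 (SE 0.41, edgeR adjusted p = 0.000429) and then −3.02 (SE 0.40, edgeR adjusted p = 0.00113). Dsg1b averaged 29.4, 38.3 and 26.8 CPM, a log2 difference of 0.38 (edgeR adjusted p = 0.0100) and then −0.51 (edgeR adjusted p = 0.00428). Dsg1a, by contrast, gave −0.13 and −0.20, neither called. At 8.53 CPM, Dsg1c remained well below the 313 CPM that Dsg1a averaged in the same libraries. Also among the largest falls with anti-IL-4Ra was Dsc1, a desmocollin of upper layers (−0.54, edgeR adjusted p = 0.0353), and the 1 gene called higher was Pkp2, a plakophilin (0.33, edgeR adjusted p = 0.0460).

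Of 12 other adherens junction genes, 1 was called higher in isotype than in PBS, Lima1, an actin-binding protein (0.15, edgeR adjusted p = 0.0197). With anti-IL-4Ra against isotype 2 were called lower, Cdh3, the P-cadherin of basal cells (−0.53, edgeR adjusted p = 0.0241), and Nectin1 (−0.32, edgeR adjusted p = 0.0225). With anti-IL-4Ra against PBS 1 was called higher, again Lima1 (0.18, edgeR adjusted p = 0.0316). Of 9 hemidesmosome genes, which hold basal cells to the basement membrane, 2 were called higher and 2 lower in isotype than in PBS, and 3 were called lower with anti-IL-4Ra than with isotype. Itga6, an integrin chain of the hemidesmosome, gave log2 differences of 0.20 for isotype against PBS (edgeR adjusted p = 0.0341) and −0.25 for anti-IL-4Ra against isotype (edgeR adjusted p = 0.0200). Dst (−0.23, edgeR adjusted p = 0.0426) and Cd151 (−0.13, edgeR adjusted p = 0.0395) were called lower in isotype, and Lama3 (−0.27, edgeR adjusted p = 0.0319) lower with anti-IL-4Ra. No hemidesmosome gene was called for anti-IL-4Ra against PBS by edgeR. Over all genes the shares called in isotype against PBS were 9.53% higher and 7.49% lower. In anti-IL-4Ra against isotype they were 6.73% and 8.13%, and 3.72% were called in anti-IL-4Ra against PBS.

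**Figure D4:**
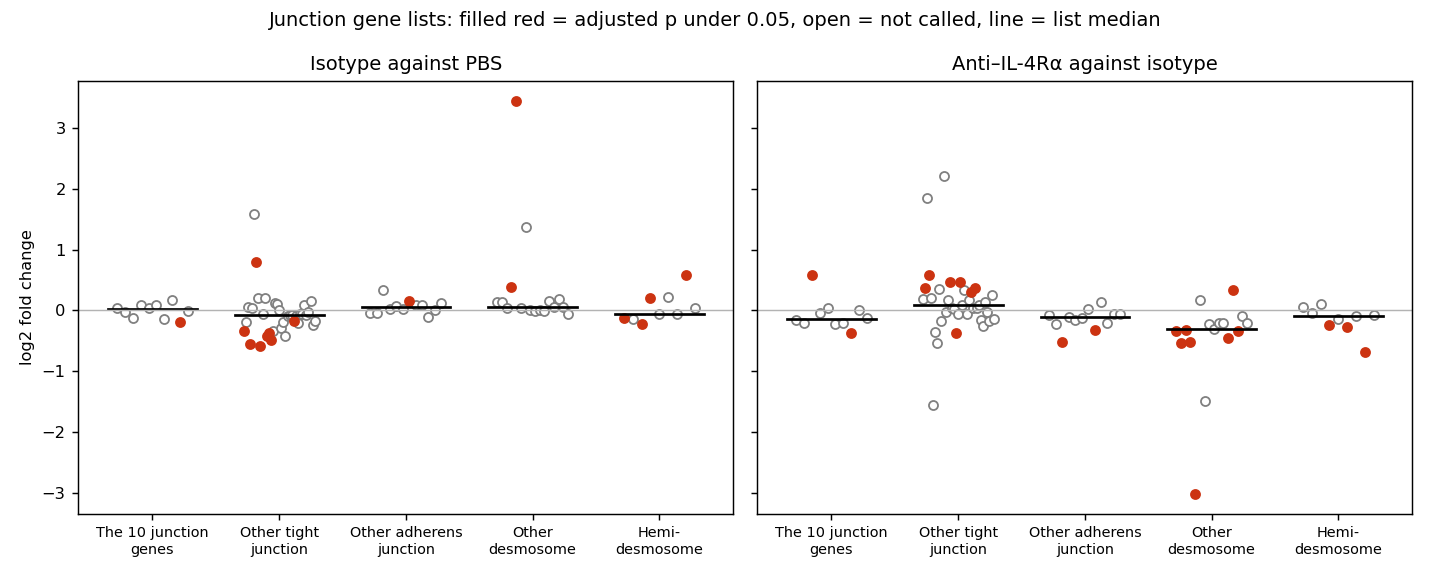
The log2 fold change of the 10 junction genes and of the genes of 4 further junction lists is plotted for isotype against PBS (left) and anti-IL-4Ra against isotype (right), with filled red points for an edgeR adjusted p under 0.05 and a line at each list's median. Dsg1c is the highest filled point on the left, at 3.45, and the lowest on the right, at −3.02, while the medians lie between −0.31 and 0.08.

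The 10 genes did not move as 1 block across libraries. Of their 45 pairs, the log2 CPM of 34 correlated positively and of 11 negatively over the 15 libraries, with a median Pearson r of 0.342. These values describe libraries that share group, depth and tissue makeup, and no test was made on them. Tjp1 and Dsc2 (r = 0.909), Cdh1 and Dsg3 (r = 0.882) and Cldn1 and Cdh1 (r = 0.789) were closest. Cldn3 had negative r to 7 of the other 9 genes, among them −0.730 to Dsg3, −0.708 to Cdh1 and −0.672 to Cldn1, and positive r to Cldn7 (0.297) and Cldn4 (0.108). Outside the 10, the genes whose log2 CPM was most like that of Cldn3 over the 15 libraries were Sqstm1 (r = 0.971), Gne (0.948) and 4933440N22Rik (0.946). For Dsg3 they were Pard6g (r = 0.960), Anxa1 (0.952) and Tmem40 (0.951), for Cdh1 Prkch (0.918), Cep170b (0.912) and Defb14 (0.900), and for Ocln Ppfibp2 (0.929), Pdlim2 (0.909) and Phyhip (0.908). For Cldn1 they were Hr (r = 0.951), Dsp, the desmosomal plaque protein (0.944), and Crybg1 (0.932), for Cldn4 Actg1 (0.914), Slc9a3r1 (0.840) and Prss22 (0.835), and for Cldn7 Ceacam1 (0.937), Slc28a3 (0.933) and Pglyrp1 (0.929). For Tjp1 they were Zfp185 (r = 0.941), Slc34a2 (0.940) and Plcd3 (0.921), for Dsc2 Engase (0.941), Actn4 (0.929) and Rnf152 (0.926), and for Dsg1a Capns2 (0.961), Elmod1 (0.960) and Pof1b (0.959).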

How the data were processed

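RNA-seq of 15 conjunctival libraries (5 per group) was analyzed from the authors' table. The authors made polyA-selected libraries with a stranded kit, aligned the reads to mouse genome B38 with Omicsoft Array Studio, keeping a quality score of 20 or more, and deposited estimated counts per Ensembl.R100 gene (expected counts, unique mapping). Whether the counting used strand is not given in the sources used here. Between 6156 and 7916 genes per library had fractional values, which were rounded. Names, positions and lengths of genes were taken from GENCODE M21 (GRCm38), an older release, which matched 55227 of 55487 identifiers.

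The 19006 genes that reached 10 counts in 5 or more libraries entered edgeR 4.0.16 (R 4.3.3) with TMM factors, 1 quasi-likelihood fit of the 3 groups and Benjamini-Hochberg adjustment over all of them. A gene was called at an adjusted p under 0.05. Single values were also compared by an exact two-sided permutation test (252 ways), and relations between genes and tissue scores by 100000 permutations within groups. The counting precision follows from the 48622246 to 87745024 counts per library. Alternatives were DESeq2 1.42.0, limma 3.58.1, other filters, factors and samples, tissue scores as covariates and leaving libraries out. The scripts were tested on simulated data. The members and lists were chosen with earlier results of these data known. All 10 members were named. Of each wider junction list the called genes with the largest differences were named, at most 3 in a direction, and for each member the 3 genes most like it. The ratio to Cdh1 was added after the values were seen. The values of 1 gene that this rule would name are not reported here.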

Additional observations from a re-analysis of the deposited data

How the results depend on the processing

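The Cldn3 call for anti-IL-4Ra against isotype was kept in 11 of 12 other settings, in 15 of 15 fits without 1 library and in 19 of 25 fits without 1 isotype and 1 anti-IL-4Ra library, with log2 differences of 0.29 to 0.72 over all of these. The Dsg3 call was kept in 10 of 12, 14 of 15 and 13 of 25 of these fits, and the Ocln call for isotype against PBS in 7, 7 and 5. The cause of the changes below was not tested.

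For isotype against PBS, 3235 genes and 1 member were called. The counts were 2115 genes and 0 members with the replicate block, 4853 and 3 with the lacrimal score as a covariate, 453 and 0 with the muscle score, and 1897 and 0 with library sizes from epithelial genes. Without the filter, and with only the groups compared in the fit, 0 members were called. Leaving libraries out gave 1599 to 4077 genes and 0 to 1 members. The log2 difference of Cldn1 turned to 0.0223 with the lacrimal score (−0.0832 to 0.0223 with libraries left out). That of Tjp1 turned to 0.0009 with DESeq2, 0.0013 without the filter, 0.0185 with the lacrimal score and 0.0041 with the muscle score (−0.0540 to 0.0143 with libraries left out), and that of Cldn7 ran from −0.0173 to 0.1349.

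For anti-IL-4Ra against isotype, 2826 genes and 2 members were called. The genes called were 1749 without the filter, 677 with 2 groups, 1859 with the replicate block, 71 with the lacrimal, 1146 with the epithelial and 1427 with the muscle score, and 1461 with epithelial library sizes. The members called were 0 with the lacrimal and 1 with the epithelial score. Leaving libraries out gave 223 (without isotype 3 and anti-IL-4Ra 1) to 5139 genes (without isotype 1 and anti-IL-4Ra 3) and 0 to 3 members. Cldn4 turned to 0.0521 with the lacrimal and 0.1339 with the epithelial score (−0.1525 to 0.1029 with libraries left out). Cldn7 turned to −0.0523 with limma voom and −0.0162 with the muscle score (−0.0987 to 0.1454), and Ocln to −0.0003 without the filter (−0.0457 to 0.0454).

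For anti-IL-4Ra against PBS, 707 genes and 0 members were called by edgeR. The genes called were 1966 with DESeq2, 2318 with limma voom, 293 with a linear model on log2(FPKM + 1), 327 without the filter, 312 with the replicate block, 2 with the lacrimal, 22 with the epithelial and 60 with the muscle score, and 197 with epithelial library sizes. The members called were 1 with DESeq2, 3 with limma voom, 1 with 2 groups and 1 with epithelial library sizes. Leaving libraries out gave 39 to 2563 genes and 0 to 4 members. With the lacrimal score Cdh1 turned to 0.0149, Dsg3 to 0.0381 and Dsc2 to 0.0667, and Cldn4 ran from −0.0237 to 0.1279 with libraries left out. Without anti-IL-4Ra replicate 3, Cldn3 (0.51), Ocln (−0.21) and Dsg3 (−0.26) were called, with edgeR adjusted p-values of 0.0207, 0.0290 and 0.0469.

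With upper quartile factors the calls for isotype against PBS were 1479 higher and 1844 lower, where TMM gave 1812 and 1423, and the linear model gave 1165 and 1576. For anti-IL-4Ra against PBS they were 354 and 336, and 79 and 214, where TMM gave 434 and 273. Replicate numbers did not pair the libraries: same-numbered deviations from the group means correlated from −0.385 to 0.454. The replicate block took the Ocln call (−0.18, edgeR adjusted p = 0.0748) and kept the Cldn3 and Dsg3 calls. The lowest value of any member was 33.1 CPM, in a library of 87745024 counts. The lowest count of any member was 1470, for Ocln in anti-IL-4Ra replicate 4, so depth did not limit the detection of any of the 10 genes.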
